A study of Mus musculus with 12 samples.

Results

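The 42 genes described here are members of the type I interferon response, taken by gene name from a list, with no threshold on their values. For each, the array's gene spots carrying that gene name were taken, and the probe with the highest mean over the 12 arrays stood for the gene. Of the 34821 gene names on the array, 24963 had a probe bright enough to test, and 39 of the 42 interferon genes were among them. Ifit3, Mx1 and Oasl2 were not tested, because their probes were well above background on 2, 0 and 2 of the 12 arrays.

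Type I interferons are secreted when a cell senses viral or bacterial nucleic acid or lipopolysaccharide (LPS). They bind the receptor made of Ifnar1 and Ifnar2, whose kinases Jak1 and Tyk2 phosphorylate transcription factors that include Stat2. Stat2 and Irf9 are parts of a complex that enters the nucleus and binds the interferon-stimulated response element (ISRE) in the promoters of its target genes. In B cells stimulated through Toll-like receptors, the same response accompanies activation, and Irf7 among its targets drives further interferon production.

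The arrays measured spleen B cells of female Balb/c mice. Every group received a CD40 agonist for 2 days and LPS in the last 5 hours, and the cells were then sorted by whether they secreted IL-10. The 4 groups of 3 arrays were IL-10+ and IL-10- cells of control mice, and IL-10+ and IL-10- cells of mice with allergic asthma to house dust mite (HDM). No genotype or transgene is named. Nothing in the labels ties the 3 arrays of a group to different animals, and p-values here measure only how far those arrays differ, which may be technical. No unstimulated group was used, so the level before CD40 and LPS was not measured.

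Levels are given on a log2 scale relative to the 75th percentile of the signals on the same array, so that a gene at that percentile reads 0, and differences are log2 fold changes with a standard error (SE). As a check of the sort, Il10 was higher in IL-10+ cells by 7.59 (SE 0.84, limma adjusted p = 0.0080). Of 10 B cell marker genes, 8 were well above background on every array, and their summed level lay between 6.20 and 6.67. The plasmacytoid dendritic cell list, which names the main interferon-producing blood cell, had 10 of 10 markers tested and a summed level of 6.47 to 7.32, and the monocyte list had 8 of 10 and 8.54 to 9.0. Of these, 5 and 4 were well above background on every array. A sum follows its brightest probe, so the sums do not rank the cell types. In the plasmacytoid list that probe was Siglech, at 5.76 to 6.54, the 1 eligible of 3 for its gene. T cell (7 of 10), NK cell (5 of 8), conventional dendritic cell (4 of 8) and neutrophil (4 of 8) markers were tested in part, with S100a8, S100a9, Mpo and Retnlg of the neutrophil list not tested. Of these 4 lists, 5, 3, 1 and 0 markers were well above background on every array. The part of such cells in the results was not tested, and in a sorted population fewer responding cells and less RNA per cell cannot be told apart.

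An array of IL-10- HDM cells, replicate 3, stood apart from the rest. Its mean correlation with the other 11 arrays was 0.775, against 0.867 to 0.901 for the others, and 73.0% of tested genes were well above background on it. It gave the highest of the 12 levels for 17 of the 39 interferon genes. The arrays lay on 2 slides: slide 1 held all IL-10+ arrays and replicates 1 and 2 of IL-10- control cells, and slide 2 held the third IL-10- control array and the 3 IL-10- HDM arrays. In HDM mice the sort and the slide therefore cannot be told apart. Only IL-10- control cells had arrays on both slides, so every value given with slide as a block turns on the third array of that group against the first 2. HDM and control mice in IL-10+ cells were compared within slide 1 alone.

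The ISRE, bound by the complex that holds Stat2 and Irf9, was searched for in the promoters of these genes first. RefSeq promoters (build GRCm38.p6, 250 bases before to 50 after a gene's start) were found for 33 of the 42 genes. Its core, read as GAAA, any 2 bases and GAAA on either strand, was in 15 of the 33 (45.5%), against 3.99% of all 27025 genes in the same table. The interferon-gamma-activated site (GAS), read as TTC, any 3 bases and GAA, which binds STAT dimers, was in 10 of the 33 (30.3%), against 9.55% of all genes. Below are the bases before the start of 4 of the members named in the results, and 30 bases around the match of Ifih1, which lies after its start; capitals mark the ISRE core, which reads TTTC, any 2 bases and TTTC where the match is on the other strand.
Rsad2, chr12:26456453-26456702, minus strand: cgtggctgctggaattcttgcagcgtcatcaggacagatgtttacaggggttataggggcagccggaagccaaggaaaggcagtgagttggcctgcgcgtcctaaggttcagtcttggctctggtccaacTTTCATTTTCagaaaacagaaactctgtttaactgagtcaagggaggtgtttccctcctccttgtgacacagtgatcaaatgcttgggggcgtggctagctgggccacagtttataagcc
Ifih1, chr2:62646206-62646235, minus strand: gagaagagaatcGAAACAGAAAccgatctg
Ifit1, chr19:34640639-34640888, plus strand: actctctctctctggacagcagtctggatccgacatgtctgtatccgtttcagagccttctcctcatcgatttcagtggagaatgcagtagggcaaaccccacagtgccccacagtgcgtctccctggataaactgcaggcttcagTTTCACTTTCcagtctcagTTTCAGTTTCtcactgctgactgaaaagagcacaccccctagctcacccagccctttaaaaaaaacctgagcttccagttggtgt
Oas1a, chr5:120907526-120907775, minus strand: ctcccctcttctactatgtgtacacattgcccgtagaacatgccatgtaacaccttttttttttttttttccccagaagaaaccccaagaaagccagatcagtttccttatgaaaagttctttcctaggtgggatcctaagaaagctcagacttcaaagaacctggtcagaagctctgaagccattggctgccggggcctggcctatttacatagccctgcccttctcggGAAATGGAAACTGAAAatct
Stat2, chr10:128270248-128270497, plus strand: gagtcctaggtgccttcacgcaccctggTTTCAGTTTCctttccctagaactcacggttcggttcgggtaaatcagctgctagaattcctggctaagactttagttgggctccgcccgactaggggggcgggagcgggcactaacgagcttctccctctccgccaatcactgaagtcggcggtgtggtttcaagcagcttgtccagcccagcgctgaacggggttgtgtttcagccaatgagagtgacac

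Rsad2 had 1 match, starting 120 bases before the start, and Ifit1 had 2, at 104 and 85 bases. The 2 matches of Oas1a overlap each other and begin 20 and 14 bases before the start, and the match of Stat2 lies 222 bases away. Isg15 had 3 matches, Ifit3, Bst2, Gbp3 and Irgm1 had 2 each, and Ddx58, Eif2ak2, Gbp2, Igtp and Oas3 had 1. No match was found in these windows for Irf7, Irf9, Ifit2, Psmb8, Psmb9 or Tap1, among others. A match is a description of the letters and shows no binding.

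No interferon gene differed between IL-10+ and IL-10- cells at an adjusted p under 0.05 in any comparison, by limma over all tested genes. In control mice 3 members passed at an unadjusted p under 0.05, against 4.06% of all genes, and 0.016% of all genes were called at the adjusted threshold. In HDM mice 2 members passed unadjusted, against 13.3% of all genes, with 0.168% called. Averaged over both kinds of mice, 6 of 39 passed unadjusted, against 9.17% of all genes, with 0.268% called. All 6 were higher in IL-10+ cells: Irf7, Ifit2, Rsad2, Ifit1, Herc6 and Oas1a. With slide as a block, 1 of the 39 passed unadjusted in the average, as did 1759 of all 24963 tested genes. By sign alone, the average put 27 of the 39 higher in IL-10+ cells, with a median log2 fold change of 0.28, where 52.7% of all genes were higher and their median was 0.04.

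**Figure D1:**
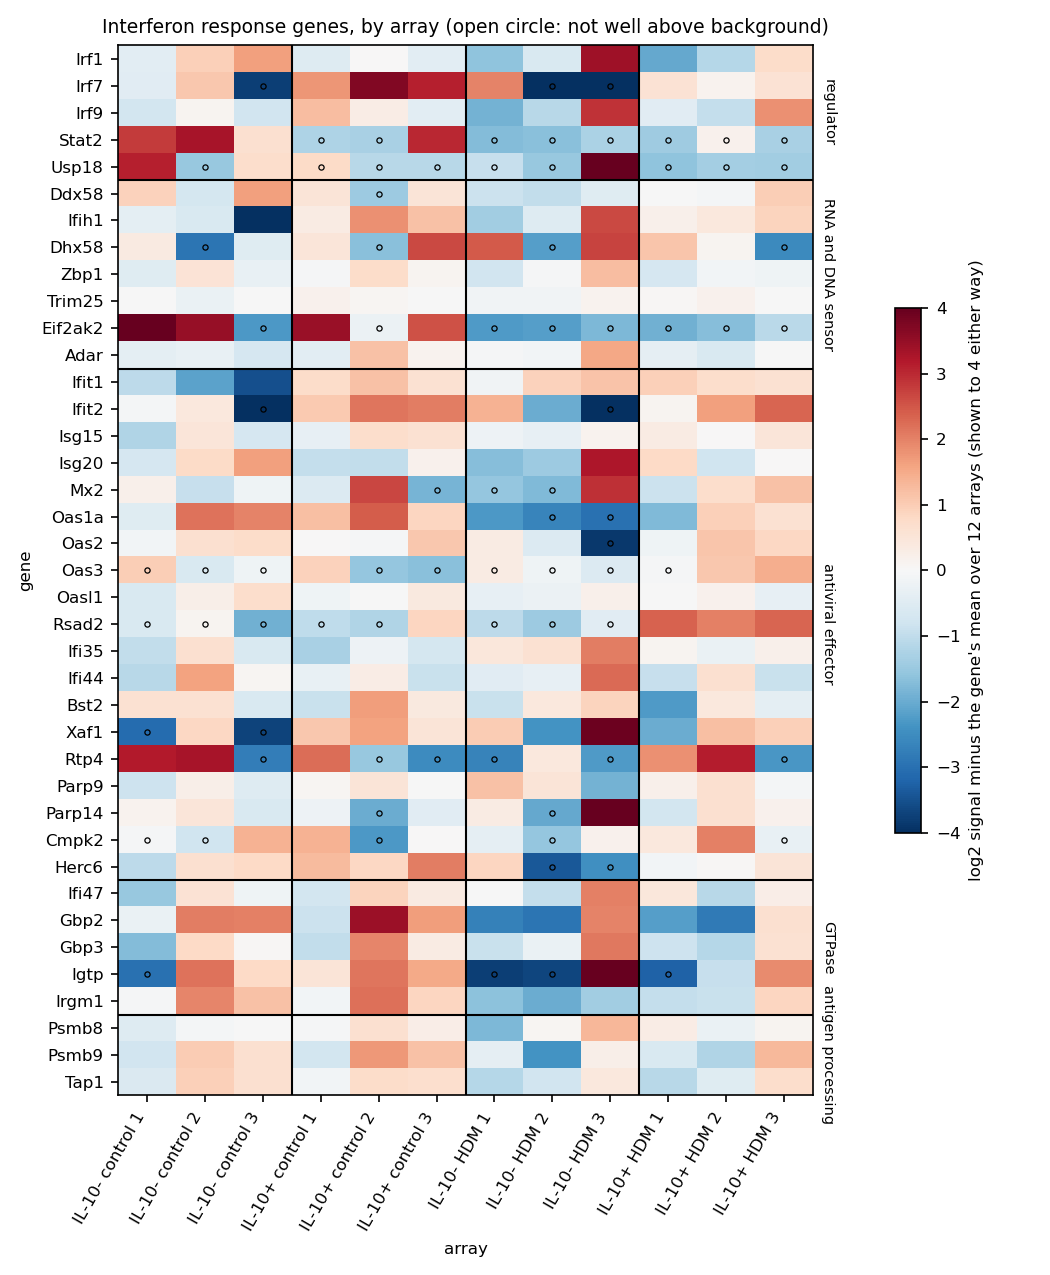
Levels of the 39 tested interferon genes (rows, grouped by role) on the 12 arrays (columns), each as log2 signal minus the gene's own mean over the arrays, coloured to 4 either way; open circles mark values not well above background. IL-10- HDM array 3 is the highest array for 17 genes, and within a group the arrays often differ as much as the groups do.

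The members varied more between arrays of a group than most genes did. Their median replicate standard deviation (SD) was 1.24 log2 units, against 0.82 for all tested genes. Among genes well above background on all 12 arrays it was 0.94 for 21 members and 0.56 for 14234 genes. Leaving out IL-10- HDM array 3 gave 0.99 for the members and 0.70 for all genes.

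The regulators of the response did not move as a group. Irf7, the factor that amplifies interferon production, read -0.28, 1.65 and 1.07 in IL-10+ control cells and -2.48, -0.94 and -5.80 in IL-10- control cells. In HDM mice it read -1.45, -1.88 and -1.46 in IL-10+ cells and -0.04, -6.62 and -6.20 in IL-10- cells. The IL-10+ arrays lay above the IL-10- arrays in control mice, while in HDM mice IL-10- array 1 was above all 3 IL-10+ arrays and the other 2 were not well above background. The averaged difference was 3.29 (SE 1.18, adjusted p = 0.428), the largest of any member, and it was 0.56 (SE 1.85) with slide as a block. Within slide 1, Irf7 in control mice differed by 2.53.

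Stat2, the signal transducer of the type I receptor, was well above background on 4 of the 12 arrays, 3 of them IL-10- control arrays at -2.01, -1.51 and -4.18. The fourth was IL-10+ control array 3, at -1.78, and on the 6 HDM arrays it read -6.55 to -4.63. In IL-10- cells it was at least 4.04-fold lower in HDM than in control mice (fitted difference -3.80, SE 1.12, adjusted p = 0.392), and the groups did not overlap. This limit was 7.07-fold without IL-10- control array 3, and 1.32-fold against that array alone, the control array on slide 2. Irf9, its partner, differed by 0.50 (SE 0.82) in the averaged sort comparison, and its levels overlapped between all groups.

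Irf1, a factor induced by both kinds of interferon, was lower in IL-10+ cells by sign, at -1.12 (SE 0.84, adjusted p = 0.722). IL-10- HDM array 3 read 3.30 against -1.70 and -0.70 on the other 2 arrays of its group, and without it the difference was -0.37. The second probe of Irf1 gave 0.40. Usp18, the protease that strips Isg15 from proteins and restrains the receptor, had the lowest averaged value, -1.95 (SE 1.27, adjusted p = 0.678). It was well above background on 3 arrays, all IL-10-: control array 1 at -1.21, control array 3 at -3.62 and HDM array 3 at 1.69. Without that HDM array, the difference was -0.74.

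Among the sensors of foreign nucleic acid, Ifih1 had the largest difference between the sorted fractions in control mice and in the average, though not in HDM mice. It read 0.98, 2.49 and 1.81 in IL-10+ control cells and 0.27, 0.04 and -3.94 in IL-10- control cells, with no overlap. The difference in control mice was 2.97 (SE 1.22, adjusted p = 1), or 1.61 within slide 1, that is without the array at -3.94. In HDM mice IL-10+ cells read 0.84, 1.06 and 1.55, between the -0.75 and 0.14 of IL-10- arrays 1 and 2 and the 3.31 of array 3, and the difference was 0.25. The averaged value was 1.61 (SE 0.86), and it turned to -1.11 (SE 1.12) with slide as a block.

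The remaining sensors had smaller averaged differences on the probes used. Ddx58, the RNA helicase RIG-I, read -2.99, -3.06 and -1.98 in IL-10+ HDM cells and -3.83, -3.97 and -3.47 in IL-10- HDM cells, a difference of 1.08 (SE 0.69, adjusted p = 0.501) with no overlap. The second Ddx58 probe, well above background on 3 arrays, gave -0.655. Dhx58, a related helicase, read from -5.58 to 0.06 over the 12 arrays and was well above background on 8 of them. Its sort difference was 1.51 (SE 1.59) in control and -1.43 (SE 1.59, adjusted p = 0.698) in HDM mice, with an average of 0.04, and the contrasts differed by -2.94 (SE 2.25, adjusted p = 0.783). Zbp1, a sensor of Z-form nucleic acid, and Adar, an RNA-editing enzyme, were well above background on every array and differed by -0.05 and -0.02 in the average. Their second probes, also well above background on all 12 arrays, gave 0.80 for Zbp1 and -1.54 for Adar, so the probes of each gene did not give the same difference. Trim25, the ubiquitin ligase that activates RIG-I, was the steadiest member, at 9.28 to 9.70 on its brighter probe, and its difference was 0.14 (SE 0.18). The second Trim25 probe, whose mean level was -0.53, gave 1.22.

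The antiviral effectors are 19 of the 39 tested members, and 5 of them were among the 6 with an unadjusted p under 0.05 in the averaged sort comparison, against 1 of 3 in control mice and 2 of 2 in HDM mice. Ifit1, which binds viral RNA lacking host cap methylation, read 1.96, 2.39 and 1.82 in IL-10+ control cells and 0.18, -0.93 and -2.29 in IL-10- control cells. All 3 IL-10+ arrays were higher, by 3.07 (SE 0.58, adjusted p = 0.241), and within slide 1 the difference was 2.43. In HDM mice Ifit1 read 2.16, 1.91 and 1.83 in IL-10+ cells and 1.06, 2.13 and 2.35 in IL-10- cells, means of 1.97 and 1.85. That difference, 0.12, turned to -1.79 with slide as a block and to -0.68 with the deposited ratios. The sort difference was smaller in HDM than in control mice by 2.95 (log2 fold change -2.95, SE 0.82, adjusted p = 0.683). Leaving out any 1 array kept that value between -3.55 and -2.31.

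Ifit2, its neighbour in the genome and also an RNA-binding effector, read -0.66, 0.43 and 0.34 in IL-10+ control cells and -1.80, -1.29 and -6.31 in IL-10- control cells. In HDM mice it read -1.62, -0.08 and 0.60 in IL-10+ cells and -0.33, -3.69 and -6.19 in IL-10- cells. The lowest value of each IL-10- group, at -6.31 and -6.19, was not well above background, and both arrays were on slide 2. The averaged difference was 3.11 (SE 1.10, adjusted p = 0.417), and with slide as a block it was -0.073 (SE 1.54). Within slide 1, control mice gave 1.58.

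Rsad2, or viperin, which makes a chain-terminating nucleotide against viral polymerases, was well above background on all 3 IL-10+ HDM arrays, at -1.53, -1.87 and -1.54. On the other 9 arrays it was well above background only on IL-10+ control array 3, at -3.0, and no IL-10- array measured it. In HDM mice it was at least 7.03-fold higher in IL-10+ cells (fitted difference 3.21, SE 0.64, adjusted p = 0.105). In IL-10+ cells alone, HDM mice exceeded control mice by 2.69 (SE 0.64, adjusted p = 1), with both groups on slide 1 and no overlap. Over the omission of any 1 array this lay between 2.31 and 3.35. Its sort difference was 2.86 (SE 0.91, adjusted p = 0.737) higher in HDM than in control mice.

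Oas1a, an oligoadenylate synthetase that activates RNase L, averaged 0.02 ± 0.81 (SD, n = 3) in the IL-10+ arrays of control mice and -0.25 ± 1.49 (SD, n = 3) in the IL-10- arrays. In HDM mice it read -3.24, -0.53 and -0.86 in IL-10+ cells and -3.77, -4.13 and -4.47 in IL-10- cells, with no overlap and a difference of 2.58 (SE 0.86, adjusted p = 0.291). IL-10- HDM arrays 2 and 3 were not well above background, so the size of a difference that uses them is not measured. In IL-10- cells HDM mice were below control mice by sign, at -3.87 (SE 0.86, adjusted p = 0.224), and within slide 2, against the single control array there, at -4.62. The second Oas1a probe, well above background on 5 arrays, gave 0.39 for the sort in HDM mice. For HDM against control in IL-10- cells it gave -0.07. Of its relatives, Oas2 differed by -0.07 in control and 1.96 (SE 0.92) in HDM mice, or 0.71 without IL-10- HDM array 3, where it read -6.13. Oas3 was well above background on 3 arrays, all IL-10+, and its sort difference was -0.83 in control mice. In HDM mice it read -4.506, -3.385 and -3.009 in IL-10+ and -4.135, -4.614 and -5.009 in IL-10- cells, with overlap. Its limit there, 1.74-fold higher in IL-10+ cells, counts IL-10+ array 1, which was not well above background, and is no firm bound. Within IL-10+ cells HDM exceeded control mice by 1.59 (SE 0.73, adjusted p = 1) by sign. Of those arrays, control arrays 2 and 3 and HDM array 1 were not well above background. Oasl1 was steady, at -0.69 to 0.61 over all arrays.

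**Figure D2:**
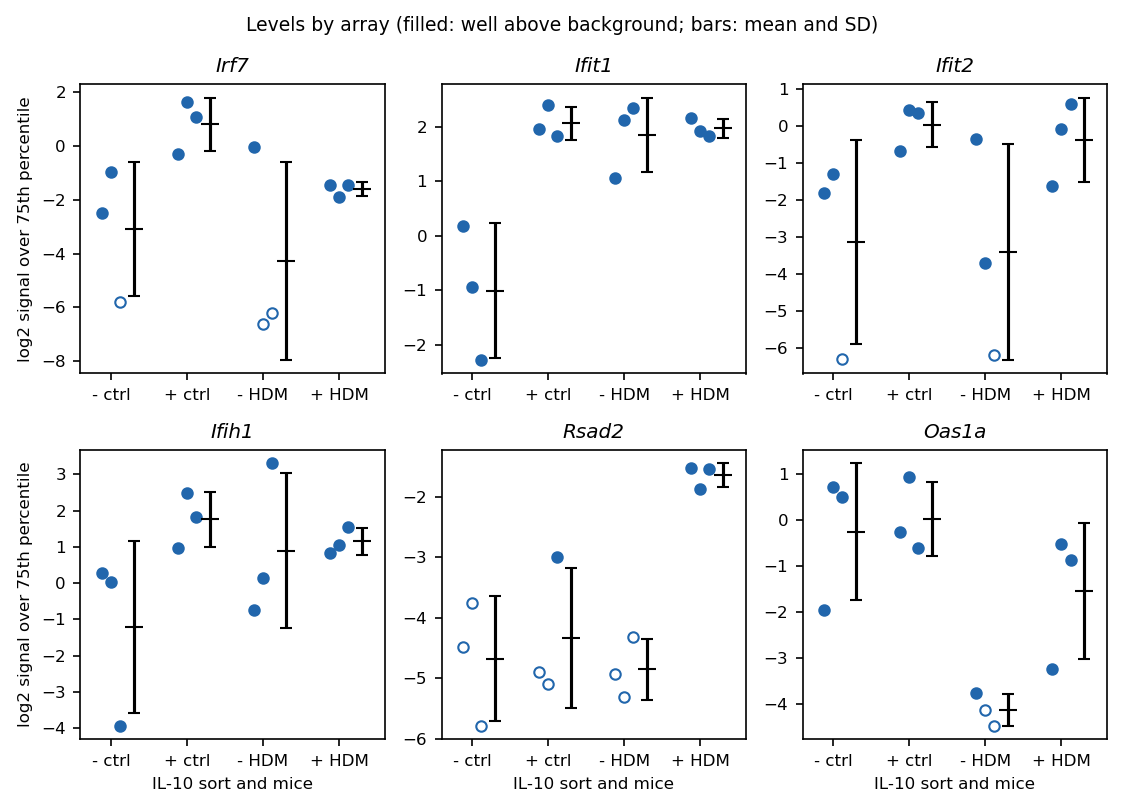
Levels of 6 interferon genes (log2 signal over the array's 75th percentile) in the 4 groups, 3 arrays each; filled points are well above background, open points are not, and bars give the mean and SD. Ifit1 is low in IL-10- control cells alone, Rsad2 is measured on 3 of 3 IL-10+ HDM arrays, and the lowest IL-10- points of Irf7 and Ifit2 are open. Oas1a is open on IL-10- HDM arrays 2 and 3.

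The probes behind these 6 genes lie, on build mm9, at chr7:148450664-148451014 (Irf7), chr19:34723796-34723855 (Ifit1), chr19:34650244-34650303 (Ifit2), chr2:62435507-62435566 (Ifih1), chr12:27127859-27127918 (Rsad2) and chr5:121348338-121348397 (Oas1a). Each was printed in 1 spot. In all, 26 members had 1 eligible probe and 13 had 2. For 9 of those 13 the second probe gave the same sign in the averaged sort comparison. The sort gave 9 of 13 in control mice and 8 of 13 in HDM mice. HDM against control gave 6 of 13 among the IL-10+ arrays and 8 of 13 among the IL-10- arrays. The difference of the sort contrasts gave 5 of 13, so the second probe often disagreed there.

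Isg15, the ubiquitin-like protein that is among the most strongly induced targets, was bright on every array, at 3.45 to 5.35. Its averaged difference was 0.61 (SE 0.33, adjusted p = 0.618). Herc6, the mouse ligase that attaches Isg15, was higher in IL-10+ cells by 1.54 (SE 0.68, adjusted p = 0.537). Herc6 did not overlap in control mice, and in HDM mice IL-10- array 1, at -0.41, was above all 3 IL-10+ arrays. Bst2, or tetherin, which holds virus particles at the membrane, differed by -0.35 (SE 0.59). Mx2, a dynamin-like antiviral protein, was at -4.62 to 0.17, and its relative Mx1 was not well above background on any array, at -6.74 to -6.06.

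Several effectors had their highest value on a single array. Xaf1, a proapoptotic target, read 2.58 on IL-10- HDM array 3 and -5.06 to 0.26 on the others, and its sort difference was 3.05 (SE 1.62) in control and -0.79 in HDM mice. Its second probe, well above background on 6 arrays, gave -0.96 and 0.20, the opposite signs. Parp14, an ADP-ribosyltransferase, read 2.30 on that array and -4.0 to -1.31 on the others. Its averaged difference of -0.85 was 0.00 without it. Rtp4 was well above background on 6 of 12 arrays and read -0.71 and -0.60 on IL-10- control arrays 1 and 2, against -6.66 on array 3. Its sort difference was -1.82 in control and 2.38 in HDM mice, each with an SE of 1.98, and the contrasts differed by 4.2 (SE 2.80, adjusted p = 0.77). In IL-10+ cells Rtp4 was at 1.46 (SE 1.98, adjusted p = 1) in HDM over control mice. The exonuclease Isg20, at -0.60 (SE 0.84), Ifi44, at -0.69 (SE 0.62), Parp9, at 0.44 (SE 0.48), and the nucleotide kinase Cmpk2, at 0.40 (SE 0.69), overlapped between the sorts in the average. Ifi35 was the only member lower in IL-10+ HDM cells without overlap, at 4.71, 4.33 and 4.79 against 5.04, 5.20 and 6.62 (difference -1.01, SE 0.55, adjusted p = 0.441).

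Counting groups whose arrays did not overlap gave 6 members higher and 0 lower in IL-10+ cells of control mice, against 4.75% and 4.7% of all genes. These were Ifit1, Ifit2, Irf7, Ifih1, Trim25 and Herc6. In HDM mice 4 members were higher (Oas1a, Rsad2, Ddx58 and Irgm1) and 1 lower (Ifi35), against 11.4% and 11.2% of all genes. On the second probes of Oas1a, Ddx58 and Irgm1 the differences there were 0.39, -0.655 and -0.08. That probe of Irgm1 was well above background on 12 arrays. No member was in both lists, and averaged over both mice 0 members had 6 IL-10+ arrays apart from 6 IL-10- arrays, against 0.701% of all genes higher and 0.236% lower. The sort difference had the same sign in control and HDM mice for 22 of 39 members (56.4%), 16 of them positive, and for 52% of all genes.

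**Figure D3:**
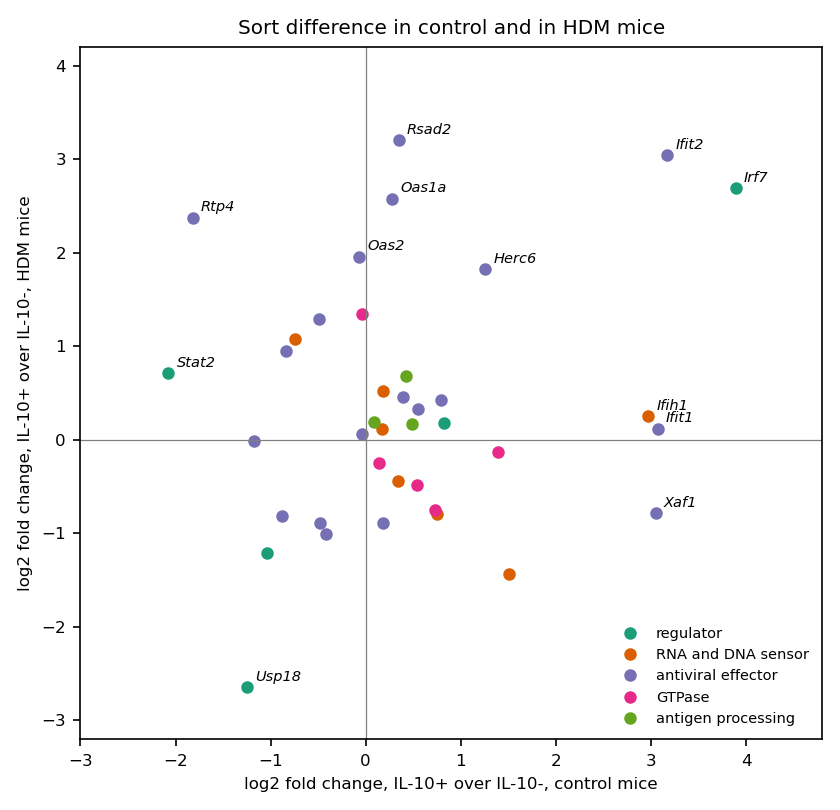
Log2 fold change of IL-10+ over IL-10- cells in control mice (x axis) and in HDM mice (y axis) for the 39 interferon genes, coloured by role. Irf7 and Ifit2 lie between 2.69 and 3.89 on both axes, Ifit1, Ifih1 and Xaf1 (whose second probe has the opposite signs) are at 2.97 to 3.07 in control and -0.79 to 0.25 in HDM mice, and Rsad2 and Oas1a are at 3.21 and 2.58 in HDM and 0.35 and 0.28 in control mice.

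The interferon-inducible GTPases, which coat and disrupt vacuoles of intracellular pathogens, varied together from array to array. Their 5 members are Gbp2, Gbp3, Igtp, Irgm1 and Ifi47. After the mean of each group was removed, the median Pearson correlation over their 10 pairs was 0.848 (0.592 to 0.957), and 0.785 without IL-10- HDM array 3. Over all 741 pairs of members it was 0.16. The points are the same 12 arrays, so RNA amplification and array are shared, and these correlations are a description.

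Gbp2 read -0.62, 3.66 and 1.93 in IL-10+ control cells, -0.02, 2.29 and 2.27 in IL-10- control cells, -1.95, -2.57 and 0.88 in IL-10+ HDM cells, and -2.45, -2.69 and 2.23 in IL-10- HDM cells. Each group thus held at least 1 array more than 2 log2 units from another. The median deviation of the 5 GTPases from their means was 0.63 to 2.14 on 6 arrays: arrays 2 and 3 of both groups of control mice, and array 3 of both groups of HDM mice. On the other 6 arrays it was -1.99 to -0.74. Their sort difference was 0.03 in the average, by the median member, and none passed an unadjusted p under 0.05 there.

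The same arrays were high for antigen processing. Psmb8 and Psmb9, subunits of the immunoproteasome, and Tap1, the peptide transporter, had with the GTPases a median pairwise correlation of 0.799 over 28 pairs. These include the 10 pairs of GTPases. Over the 3 pairs of antigen processing genes alone it was 0.576 (0.246 to 0.761), and 0.339 without IL-10- HDM array 3. Psmb9 read 1.35, 3.80 and 3.23 in IL-10+ and 1.32, 3.09 and 2.72 in IL-10- control cells. The averaged sort differences were 0.33 for Psmb8, 0.55 for Psmb9 and 0.14 for Tap1, with standard errors of 0.43 to 0.66.

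**Figure D4:**
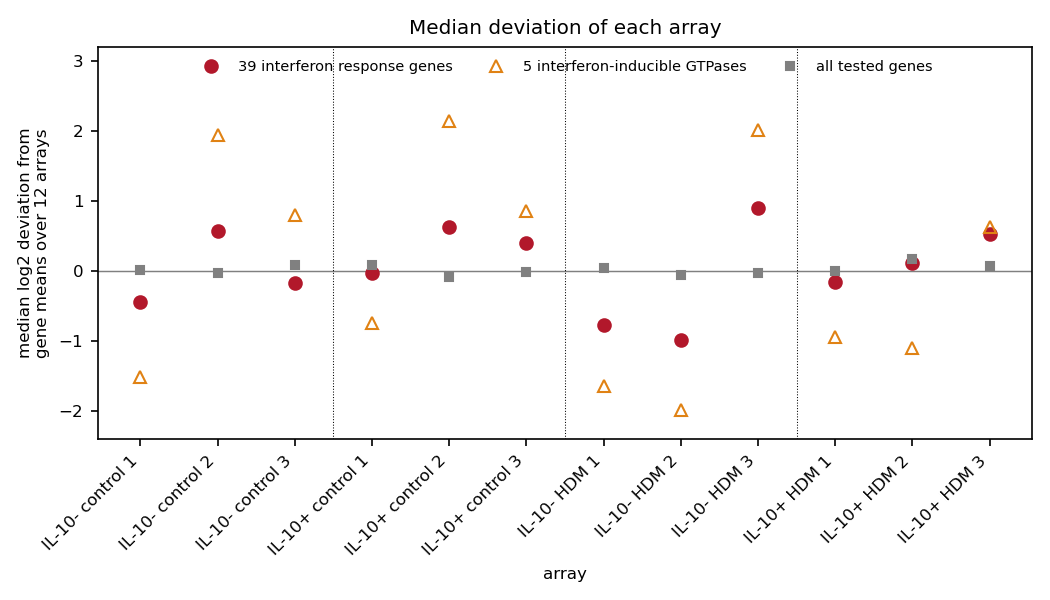
Median deviation from the gene means on each array for the 39 interferon genes (circles), the 5 GTPases (triangles) and all tested genes (squares), in log2 units. The members range from -0.99 to 0.90 and the GTPases from -1.99 to 2.14, while all genes stay between -0.10 and 0.17; the 3 IL-10- HDM arrays hold the 2 lowest and the highest circle.

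The median sort difference of the whole list changed with single arrays, and within control or HDM mice so did its sign. The median member deviated by -0.78, -0.99 and 0.90 on the 3 IL-10- HDM arrays, by -0.44, 0.57 and -0.17 on the IL-10- control arrays, by -0.04, 0.63 and 0.40 on the IL-10+ control arrays, and by -0.16, 0.11 and 0.52 on the IL-10+ HDM arrays. In HDM mice the median sort difference was 0.18, beside 0.16 for all genes. Leaving out IL-10- HDM array 3 raised it to 0.75, and leaving out array 1 of that group gave -0.25. The averaged median of 0.28 ranged from 0.07 without IL-10- HDM array 1 to 0.43 without array 3. In control mice 0.28 became -0.02 without IL-10- control array 1 and 0.55 without array 2.

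**Figure D5:**
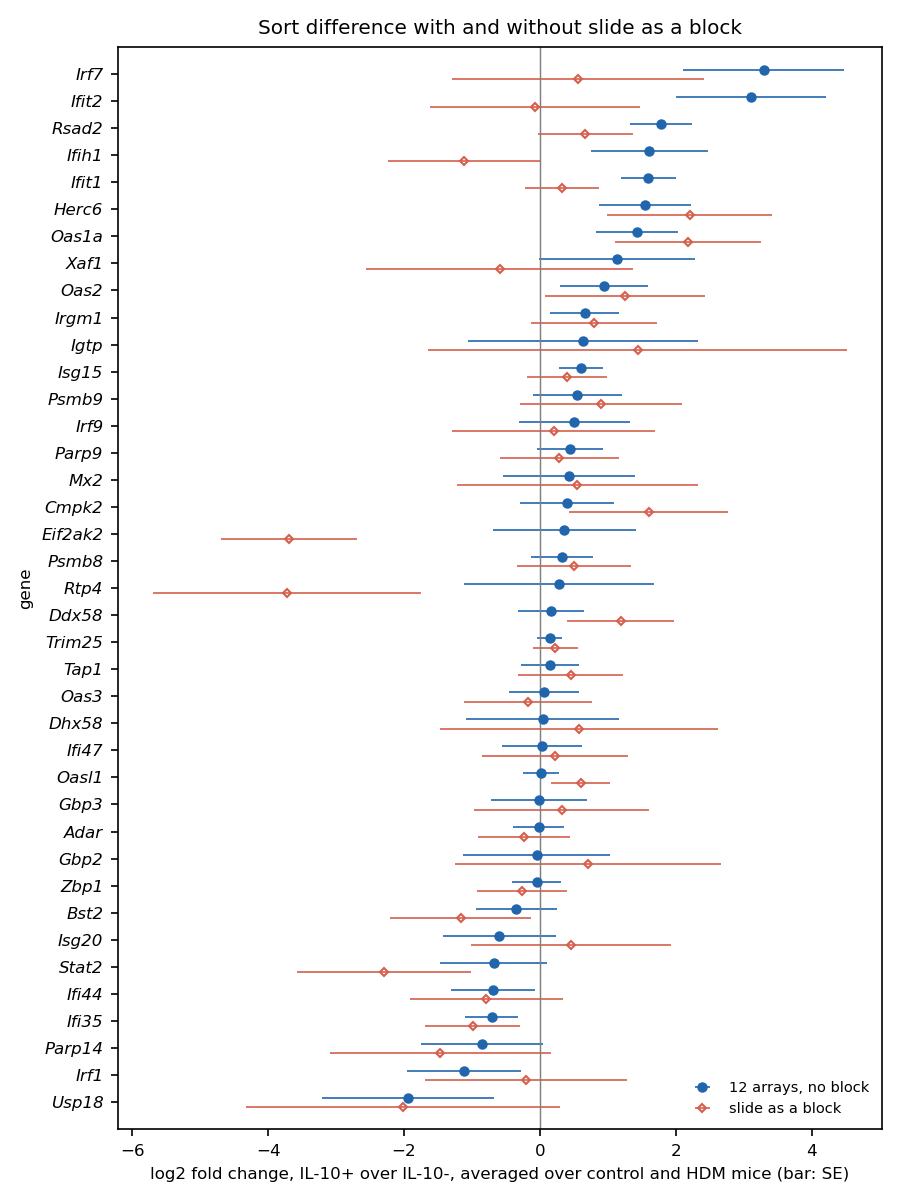
Averaged log2 fold change of IL-10+ over IL-10- cells for each of the 39 interferon genes, with its SE, without a block (filled) and with slide as a block (open). Irf7, Ifit2 and Ifih1 move from 3.29, 3.11 and 1.61 to 0.56, -0.073 and -1.11, while Herc6 and Oas1a are as high or higher with the block.

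House dust mite allergy was compared with control within each sorted fraction. In IL-10+ cells, 28 of the 39 members were lower in HDM mice by sign, with a median of -0.40, where 56.3% of all genes were higher and their median was 0.07. No member was called by limma, and 2 passed an unadjusted p under 0.05, against 2.28% of all genes, with 0.00401% called. These were Rsad2, higher, and Eif2ak2, lower. All 5 regulators, all 5 GTPases and all 3 antigen processing genes were lower by sign, as were 6 of 7 sensors, while 10 of 19 effectors were higher. Irf7 (1.65, 1.07 and -0.28 against -1.45, -1.46 and -1.88), Usp18, Zbp1, Eif2ak2 and Herc6 were lower without overlap, 5 members where 3.75% of all genes were. Usp18 was not well above background on any of the 6 arrays, so its order there is no difference in level, and Eif2ak2 was not on IL-10+ control array 2, at -4.68. Of the same arrays, Stat2 was well above background on IL-10+ control array 3 alone. Rsad2 alone was higher without overlap, where 5.86% of all genes were.

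Both groups of that comparison lay on slide 1, and the median kept its sign when any 1 array was left out, between -0.65 and -0.19. The 3 lowest members were Eif2ak2 at -3.49 (SE 1.49), Gbp2 at -2.87 (SE 1.54) and Irf7 at -2.41 (SE 1.67), each with an adjusted p of 1. Eif2ak2, the kinase PKR that halts translation on double-stranded RNA, was not well above background on any HDM array, at -6.70 to -5.50. In IL-10+ control cells it was well above background on 2 of 3 arrays, at -0.97 and -1.89. Its limit over IL-10+ HDM cells, 2.84-fold, counts IL-10+ control array 2, which was not well above background, and is no firm bound. This limit was 6.02-fold without IL-10+ control array 2 and 1.66-fold without array 1.

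In IL-10- cells 21 of 39 members were lower in HDM mice, with a median of -0.17 beside -0.04 for all genes. With slide as a block the direction turned: 23 of 39 were higher, with a median of 0.27 beside -0.14 for all genes. Without the block, 6 members passed an unadjusted p under 0.05, against 9.13% of all genes. Ifit1 (2.86, SE 0.58, adjusted p = 0.178) and Ifi35 (1.35) were higher, and Oas1a, Stat2, Irgm1 and Eif2ak2 were lower. None was called, where 0.0481% of all genes were. Irgm1, a GTPase that guards autophagy and vacuole clearance, read 3.27, 5.27 and 4.48 in control and 1.68, 1.34 and 1.94 in HDM mice, a difference of -2.69 (SE 0.72, adjusted p = 0.336). The second Irgm1 probe gave -1.25. Ifit1 and Adar were higher without overlap, against 5.72% of all genes, and Oas1a, Stat2 and Irgm1 lower, against 6.16%. Eif2ak2, at -3.82, was not well above background on any of the 4 arrays of slide 2, so no difference could be read within that slide. Its limit in IL-10- cells, 3.68-fold lower in HDM mice, counts IL-10- control array 3, which was not well above background, and is no firm bound. This limit was 15-fold without IL-10- control array 3, 1.67-fold without array 1 and 2.01-fold without array 2. The 2 HDM comparisons share no arrays, and 46.2% of members and 44.4% of all genes had the same sign in both.

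No member was called for a difference of the sort contrast between HDM and control mice, where 0.012% of all genes were. Ifit1 (-2.95) and Rsad2 (2.86) passed an unadjusted p under 0.05, against 6.46% of all genes, in opposite directions.

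Members with and without an ISRE core in the promoter window were set side by side. In the averaged sort comparison the median was 0.48 for 14 tested members with a match, 0.15 for 17 without and 0.16 for 8 not in the promoter table. The order of the first and second of these was the other way in control mice, at 0.23 with a match and 0.42 without, and in HDM mice they were 0.47 and 0.12. In IL-10+ cells, HDM against control gave -0.94, -0.30 and 0.15. Irf7 and Ifit2, with the largest averaged differences, are among those without a match.

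Beyond the members, 84 of a wider list of pathway genes were tested, and 2 were called, both higher in IL-10+ cells. Both were called in HDM mice and in the average, where 0.168% and 0.268% of all genes were. Psmb10, the third catalytic subunit of the immunoproteasome, read -0.23, -0.25 and -0.28 in IL-10+ and -3.40, -3.39 and -2.12 in IL-10- control cells. In HDM mice it read -0.36, -0.65 and -0.49 in IL-10+ and -2.90, -3.26 and -2.84 in IL-10- cells, so that all 6 IL-10+ arrays were above all 6 IL-10- arrays. Its averaged difference was 2.61 (SE 0.27, adjusted p = 0.00696), and it was called in 16 of 18 ways of processing. With slide as a block it was 3.46 (SE 0.34) and not called (adjusted p = 0.0685). Psmb8 and Psmb9, its partners in the same complex, differed by 0.33 and 0.55.

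Epsti1, an interferon-induced gene, was called in HDM mice at 4.18 (SE 0.58, adjusted p = 0.0259), with IL-10+ arrays at 1.79, -0.60 and 0.49 and IL-10- arrays at -3.89, -3.37 and -3.61. In the average it differed by 2.70 (SE 0.41, adjusted p = 0.0303), called in 6 of 18 ways of processing, and by 2.87 with slide as a block (adjusted p = 0.428). Averaged over both mice, 59 of the 84 pathway genes were higher in IL-10+ cells by sign, with a median of 0.49. Of all genes, 52.7% were higher and their median was 0.04.

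The interferon genes themselves were higher in IL-10+ cells by sign: 11 of 11 tested ligands in the average, with a median of 0.95, and none called. In that comparison 52.7% of all genes were higher, with a median of 0.04. In control mice 10 of 11 were higher, with a median of 1.44, and in HDM mice 7 of 11, with a median of 0.25 beside 0.16 for all genes. Ifna4 read -0.38, 2.47 and 0.32 in IL-10+ and -0.37, -3.41 and -4.63 in IL-10- control cells, and its averaged difference was the highest of the pathway list, 3.44. In control mice 7 ligands did not overlap between the sorts, all higher in IL-10+ cells, against 4.75% of all genes, and in HDM mice 1 did not, against 11.4%. The alpha interferon genes are near-identical copies, so their probes may read one another's transcripts and are not separate counts. Ifnb1, the first interferon made after LPS, was well above background on 2 arrays, IL-10+ control array 2 at 0.66 and IL-10- control array 3 at -0.75, and was not tested, and Ifng was not well above background on any array.

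Of 8 receptor and transducer genes, the average put 6 higher in IL-10+ cells by sign, where 52.7% of all genes were. Ifnar2 read 1.21 to 3.17 on the 12 arrays, and Ifnar1 read 2.06 to 3.14 on 11 of them and -6.18 on IL-10- HDM array 3. Among 13 sensing genes 10 were lower by sign, led by Tmem173, the adaptor STING, at -2.20, and Mb21d1, the DNA sensor cGAS upstream of it, at -0.98. The direction of Mb21d1 turned with the mean of all its probes, to 0.14. In control mice neither Tmem173 nor Mb21d1 overlapped, with Tmem173 at -2.11, -3.23 and -2.77 in IL-10+ and 0.11, -0.50 and -0.64 in IL-10- cells. In HDM mice both overlapped. Tmem173 there read -2.385, -2.861 and -1.765 in IL-10+ and -1.591, -2.352 and 3.048 in IL-10- cells, the last on IL-10- HDM array 3. Ikbke, a kinase that activates Irf7, went the other way at 3.01, and Ifitm2, a barrier to viral entry, was the lowest pathway gene at -2.29. In control mice Ifitm2 read -1.656, -6.215 and 0.149 in IL-10+ and 0.327, 1.136 and -0.111 in IL-10- cells. The value of -6.215 was not well above background, so the size of that average is not measured. None of these 4 sensing and entry genes was called, and the limma adjusted p in the average was between 0.344 and 0.553.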

How the data were processed

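Each of the 12 samples was hybridised to a one-colour Agilent array (design 028005, annotation on build mm9, Feature Extraction 10.7.3.1, per the file headers). Per the labels' protocols, the cDNA was amplified by PCR before labelling. The deposited intensity values in the processed signal column are background-subtracted and detrended within the array, per the file headers, and not normalised between arrays. The mean spot and local background intensity columns were deposited as scanned, and the deposited per-spot flags are other values, 0 or 1. Values in the authors' deposited table are a ratio of each spot's signal to its array's median, to within 0.00077% by recomputation.

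Spots marked as outliers were left out, and spots of a probe were averaged. Signals were put on the log2 scale and each array's 75th percentile was subtracted, for probes well above background on at least 3 of 12 arrays, with the brightest probe per gene. No spot was saturated, and the number of arrays limits the precision. The 4 group means of all 12 arrays were fitted by lmFit and eBayes of limma 3.58.1 (R 4.3.3), with 8 residual and 2.12 prior degrees of freedom. Benjamini-Hochberg adjustment ran over all 24963 tested genes, and a gene was called at an adjusted p under 0.05. The script was tested on simulated data. A value not well above background on any array of a group is given as at least a fold, against the lowest signal well above background on each array or the probe's own where higher. Where some arrays of the higher group were not well above background either, the limit is no firm bound. Slide was read from the scanner output.

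The genes to name were, by rule, the 3 highest and 3 lowest members of each comparison, Irf7, Irf9, Stat2 and Irf1, and the called pathway genes and the 3 highest and 3 lowest of that list in the average. A gene of the pathway list that this rule names is not reported here. Other genes were named after their values were seen. The members, the pathway and marker lists and these rules were chosen with earlier results of these data known. Alternatives were quantile normalisation, normexp (offset 50), the deposited ratios, no filter or at least 6 arrays, the mean of all probes, slide or replicate number as a block, single slides, and leaving out each array.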

Additional observations from a re-analysis of the deposited data

How the results depend on the processing

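No interferon gene was called by limma in any of the 6 comparisons under any alternative. Among values of genes under alternatives, in the comparisons for which the rule names them, 939 kept their direction and side of the threshold, 35 lost their call (all of Psmb10, Epsti1 or Il10), and 10 changed direction. These were Irf1 in HDM mice (0.72 with the mean of probes, 0.17 with slide as a block, -2.21 to 0.29 over omitted arrays, the highest without IL-10- HDM replicate 3), Mb21d1 in the average (0.14 with the mean of probes), Ifit2 with slide as a block (-1.73 in HDM mice, -0.073 in the average), Irf7 with slide as a block (-1.41 in HDM mice), Eif2ak2 in HDM against control IL-10- cells (0.22 with slide as a block and 0.22 within slide 2) and Parp14 in the average (-1.57 to 0 over omitted arrays, the highest without the same array). The 4 slide 2 values of Eif2ak2 were not well above background. The deposited ratios gave member medians of -0.62 for the sort in HDM mice, 0.47 for HDM against control in IL-10- cells and -1.11 for the difference of the sort contrasts, where the medians of all genes were -0.64, 0.60 and -0.78. Scaling to the array median thus moved all genes.

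Leaving out each array gave member medians of -0.02 to 0.55 for the sort in control mice, -0.25 to 0.75 in HDM mice, 0.07 to 0.43 in the average, -0.65 to -0.19 for HDM against control in IL-10+ cells, -0.58 to 0.30 in IL-10- cells and -0.52 to 0.49 for the difference of the sort contrasts. Over all genes, 67 were called in the averaged sort comparison, 31 to 139 with an array left out, 26 with the deposited ratios and 0 with slide as a block (1759 at an unadjusted p under 0.05). Nothing in the labels says whether the replicate numbers pair the arrays. The correlation of same-numbered arrays was -0.142 to 0.149 over 18 pairs, and 5 of 12 arrays correlated best with their own number. For IL-10+ against IL-10- arrays it was 0.033 to 0.149 within control mice and 0.019 to 0.067 within HDM mice. For control against HDM arrays it was -0.142 to 0.034. With the replicate block, 0 members were called, the averaged member median was 0.28, and 36 genes were called in the average. A fitted difference that rests on values not well above background is no bound, and its size is not measured.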
